A study of Arabidopsis thaliana with 6 samples.

Results

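The glucosinolate genes of *Arabidopsis thaliana* were followed in the base of inflorescence stems as a set of 41 loci among the 33602 loci of the read count table. They were taken by locus code and comprise the MYB regulators of the aliphatic and indolic branches, the enzymes of chain elongation, core synthesis and side chain modification, the transporters *GTR1* and *GTR2*, the myrosinases *TGG1* and *TGG2* with related glucosidases, the breakdown modifiers *ESP*, *ESM1* and *MVP1*, and the myrosin cell regulator *FAMA*. All 41 were in the table, and 39 passed the filter on low counts and were tested. Shoots labelled *smxl4 smxl5* were compared with shoots labelled wild type, 3 RNA sequencing libraries each. Every shoot of either genotype had been grafted onto a wild-type root, and each library pooled the lowest 1 cm of 3 stems taken from plants 15 to 20 cm tall. The labels describe neither the alleles nor the ecotype. They call the pools biological replicates but do not say whether these were grown separately, and the descriptions of all 3 wild-type samples give replicate 1 while their titles number them 1 to 3, so p-values measure the spread between the pools.

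Glucosinolates are sulfur-rich defence compounds of the cabbage order, made from methionine in the aliphatic branch and from tryptophan in the indolic branch. In intact tissue they are kept apart from myrosinases, the thioglucosidases that release toxic isothiocyanates or nitriles from them after wounding. In stems myrosinases are found in myrosin cells next to the phloem, though not necessarily there alone. Both myrosin cells and guard cells depend on the bHLH factor FAMA. Glucosinolates are stored in other cells close to the phloem and are moved by the GTR transporters.

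Of the 39 tested genes, 7 rose in the mutant-labelled libraries and 0 fell. They were *FAMA*, *TGG1*, *TGG2*, *GTR2*, *MVP1*, *CYP79B3* and *MYB28*. Across all 20296 tested genes 11.2% rose and 13.7% fell at the same threshold (edgeR's quasi-likelihood test, Benjamini-Hochberg adjusted p of 0.05), together 24.9%. At an unadjusted edgeR p of 0.05, *MYB34* and *CYP83B1* were higher besides these 7, and 1 of the 39 genes (*ESP*) was lower. DESeq2's Wald test called the same 1 lower and 9 higher. The shares over all genes are not given here for the unadjusted p or for DESeq2. Without mutant-labelled replicate 2 the number of higher genes among the 39 was 10, and without mutant-labelled replicate 3 or wild type replicate 3 the number of lower genes was 2 or 1. The median log2 fold change of the 39 genes was 0.16, beside 0.021 over all genes tested. Without mutant-labelled replicate 3 that median was -0.0053, and without wild type replicate 3 it was 0.0090. The groups did not overlap for 10 of the 39, with the mutant-labelled libraries above in 9 and below in 1, where 23.3% of all tested genes lay above and 22.0% below (45.3% in all). The 7 genes comprise the myrosin cell regulator, 2 of 4 glucosidases, 1 of 2 transporters, 1 of 3 breakdown modifiers, 1 MYB regulator and 1 enzyme of indolic synthesis, while 0 of 8 chain elongation genes and 0 of 6 aliphatic core genes were called.

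**Figure D1:**
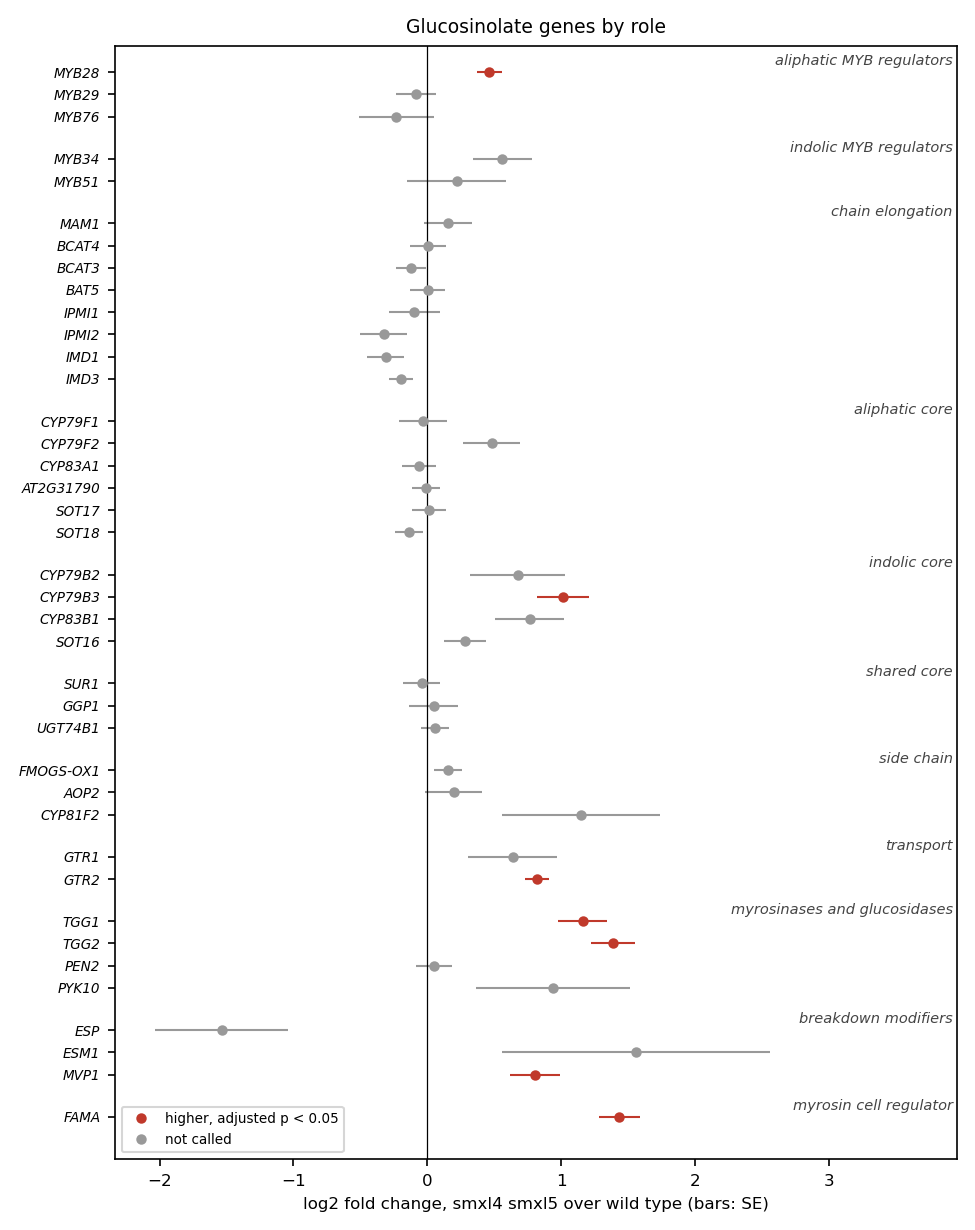
Log2 fold change of smxl4 smxl5 over wild type for each of the 39 tested glucosinolate genes, ordered by role, with bars for the standard error. The 7 called genes are red and all lie to the right of 0, and the genes of chain elongation and the aliphatic core cluster around 0.

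Before the single genes are described, the labels and the libraries were checked. Library totals ran from 21364628 to 49929595 counts. *SMXL4* reached 13.4, 15.3 and 11.2 CPM (read counts scaled to a common library size with TMM factors, here in mutant-labelled replicates 1 to 3) against 12.1, 10.2 and 11.1 CPM in wild type, and *SMXL5* reached 116, 116 and 82.0 CPM against 112, 97.5 and 99.4 CPM. Neither passed the test, with log2 fold changes of 0.26 ± 0.13 and 0.023 ± 0.14, so the counts over these whole genes do not check the genotype labels, and directions are those of the libraries labelled *smxl4 smxl5*. All 8 phloem markers fell, their sum being 268 to 294 CPM against 563 to 620.0 CPM in wild type. The 6 green tissue markers fell as well, where 13.7% of all genes tested were lower. Of 10 root markers 2 passed the filter, and the sum of the list stayed at or under 1.33 CPM in every library. Mutant-labelled replicate 3 stood apart from the other mutant-labelled libraries in many glucosinolate genes and held the highest of the 3 mutant-labelled values for 28 of the 39, so values without it are given where they change a call or a direction.

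The upstream sequences of the regulator and its best-known cell products are shown because *FAMA*, *TGG1* and *TGG2* rose together and FAMA is a bHLH factor, a class that binds E-boxes. Each is the 300 bases before the annotated start of the gene in TAIR10.1 (RefSeq), 5′ to 3′ on the strand of the gene, with every E-box (CANNTG, a pattern that is read on both strands at once) in capitals. The *FAMA* window is chr3:8718212-8718511 on the minus strand, the *TGG1* window chr5:9082385-9082684 on the minus strand and the *TGG2* window chr5:9072408-9072707 on the plus strand.
FAMA: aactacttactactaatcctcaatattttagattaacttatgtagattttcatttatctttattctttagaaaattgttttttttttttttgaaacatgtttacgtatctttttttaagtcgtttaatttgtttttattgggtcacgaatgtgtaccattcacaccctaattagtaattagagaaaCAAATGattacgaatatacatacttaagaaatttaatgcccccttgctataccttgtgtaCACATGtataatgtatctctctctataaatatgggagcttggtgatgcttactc
TGG1: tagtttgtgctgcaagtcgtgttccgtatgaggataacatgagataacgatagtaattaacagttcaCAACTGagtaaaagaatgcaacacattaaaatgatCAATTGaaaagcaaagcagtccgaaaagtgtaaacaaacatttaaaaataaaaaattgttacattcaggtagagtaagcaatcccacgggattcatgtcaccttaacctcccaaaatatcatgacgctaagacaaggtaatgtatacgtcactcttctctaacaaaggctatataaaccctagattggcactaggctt
TGG2: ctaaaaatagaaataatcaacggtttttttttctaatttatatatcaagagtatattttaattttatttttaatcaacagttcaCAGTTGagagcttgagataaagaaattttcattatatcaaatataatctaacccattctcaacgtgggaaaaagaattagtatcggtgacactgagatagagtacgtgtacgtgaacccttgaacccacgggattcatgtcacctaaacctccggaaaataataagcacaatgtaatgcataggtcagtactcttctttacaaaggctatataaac
The windows of *FAMA* and *TGG1* held 2 E-boxes each and that of *TGG2* held 1. Among 27443 protein-coding genes 61.9% had at least 1 in the same window, and among 40 glucosinolate genes with a protein-coding annotation 57.5% did (23 genes). The G-box CACGTG, an E-box that MYC factors bind, was found in the windows of *CYP83A1* and *SUR1* alone among the 40, or 5.0%, against 7.09% of all genes. Such a match is a description of the letters and not a binding site.

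*FAMA* (AT3G24140; chr3:8715118-8718211), which drives the differentiation of both guard cells and myrosin cells, reached 16.6, 16.8 and 11.9 CPM in mutant-labelled replicates 1 to 3 and 6.05, 5.79 and 4.92 CPM in wild type. Every mutant-labelled library lay above every wild-type library, and replicate 3 was the lowest of its group in either genotype. The log2 fold change was 1.43 ± 0.16 (SE, edgeR adjusted p = 0.00248), a 2.70-fold rise. Leaving out any single library kept it between 1.34 and 1.58. In these bulk samples more cells of a type and more RNA per cell cannot be told apart, for *FAMA* or any gene below.

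Guard cells, the other cell type that FAMA specifies, were followed through their own markers. Of 8 guard cell genes 2 fell, 0 rose and 6 were not called, beside 13.7% lower and 11.2% higher over all genes tested. The sum of the list was 58.7 to 70.8 CPM in the mutant-labelled libraries against 88.9 to 101 CPM in wild type. The potassium channel gene *KAT1* fell from 21.4, 22.0 and 20.1 to 4.31, 3.77 and 3.58 CPM (log2 -2.44 ± 0.10, edgeR adjusted p = 0.000134). The scarce anion channel gene *ALMT12* fell from 0.447, 0.732 and 0.545 to 0.180, 0.186 and 0.277 CPM (log2 -1.39 ± 0.35, edgeR adjusted p = 0.0265). The call of *ALMT12* was lost in DESeq2's Wald test (adjusted p = 0.0658) and with the replicate number as a block (edgeR adjusted p = 0.0581). It was also lost without mutant-labelled replicate 1 or 2 or wild type replicate 2 (edgeR adjusted p up to 0.111). Of the 7 genes of the stomatal lineage, *TMM* alone passed the filter, and it was not called (log2 0.55 ± 0.61). The list summed to at most 2.88 CPM in any library, a value reached in mutant-labelled replicate 3. *SPCH* had 0, 0 and 13 counts in mutant-labelled replicates 1 to 3 against 3, 5 and 8 in wild type, and *MUTE* had 0, 0 and 7 against 1, 0 and 2. The sum of the guard cell list was lower in every library in which *FAMA* and the myrosinase genes were higher. *KAT1* and *GORK* made up most of that sum. *GORK* was at 47.8, 56.9 and 43.7 CPM against 61.4, 67.7 and 58.8 CPM and missed the threshold (edgeR adjusted p = 0.0555). The groups overlapped for 5 of the 8 genes, where 45.3% of all tested genes did not overlap, and *KAT2* was at 0.058 ± 0.23. The sum therefore does not speak for the list as a whole. Of 7 epidermis markers 2 fell, the wax genes *CER1* at -1.90 ± 0.21 and *MAH1* at -2.18 ± 0.24, and 0 rose. That list summed to 343 to 398 CPM against 435 to 679.5 CPM in wild type, and 5 of the 7 genes were not called. The part of the lower epidermis and phloem markers in these values was not tested.

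*TGG1* and *TGG2* (AT5G26000; chr5:9079452-9082384 and AT5G25980; chr5:9072708-9075777) encode the classical myrosinases of the shoot and lie on facing strands of chromosome 5. *TGG2* was at 9495, 9465 and 6713 CPM in the mutant-labelled libraries and at 3689.5, 3277 and 2868 CPM in wild type. *TGG1* was at 6088, 6078 and 3969 CPM against 2679, 2400.3 and 2143 CPM. For both genes the groups were well apart, and the third mutant-labelled library was the lowest of its group, as it was for *FAMA*. The log2 fold changes were 1.38 ± 0.16 for *TGG2* and 1.16 ± 0.18 for *TGG1* (edgeR adjusted p = 0.00293 and 0.00623), and leaving out single libraries gave 1.29 to 1.53 and 1.05 to 1.34.

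Together the 2 myrosinase genes took 1.58%, 1.56% and 1.07% of all counts in the mutant-labelled libraries and 0.634%, 0.564% and 0.497% in wild type. By read count *TGG2* ranked 1, 1 and 3 among all genes in the mutant-labelled libraries and 6, 8 and 11 in wild type. *TGG2* had 1.56, 1.56 and 1.69 reads per *TGG1* read in the mutant-labelled libraries and 1.38, 1.37 and 1.34 in wild type. These ratios did not overlap between groups (exact two-sided permutation test, p = 0.10, the smallest value that 3 against 3 libraries allow).

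Neither of the other glucosidase genes passed the test. *PEN2*, whose enzyme cleaves indolic glucosinolates in pathogen defence, was at 64.2, 54.6 and 74.8 CPM against 67.9, 65.8 and 53.4 CPM, and the groups overlapped (log2 0.051 ± 0.14). *PYK10*, the main glucosidase of endoplasmic reticulum bodies (ER bodies) in seedlings and roots, was at 78.8, 21.1 and 113 CPM against 30.8, 45.2 and 35.3 CPM. Its mutant-labelled libraries spread from below to far above wild type, so that a log2 fold change of 0.94 ± 0.57 did not pass the threshold (edgeR adjusted p = 0.276), although it passed without mutant-labelled replicate 2, at 1.35 (edgeR adjusted p = 0.0139). Without mutant-labelled replicate 3 it was at 0.44. A locus on the opposite strand overlaps it by 138 bases.

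**Figure D2:**
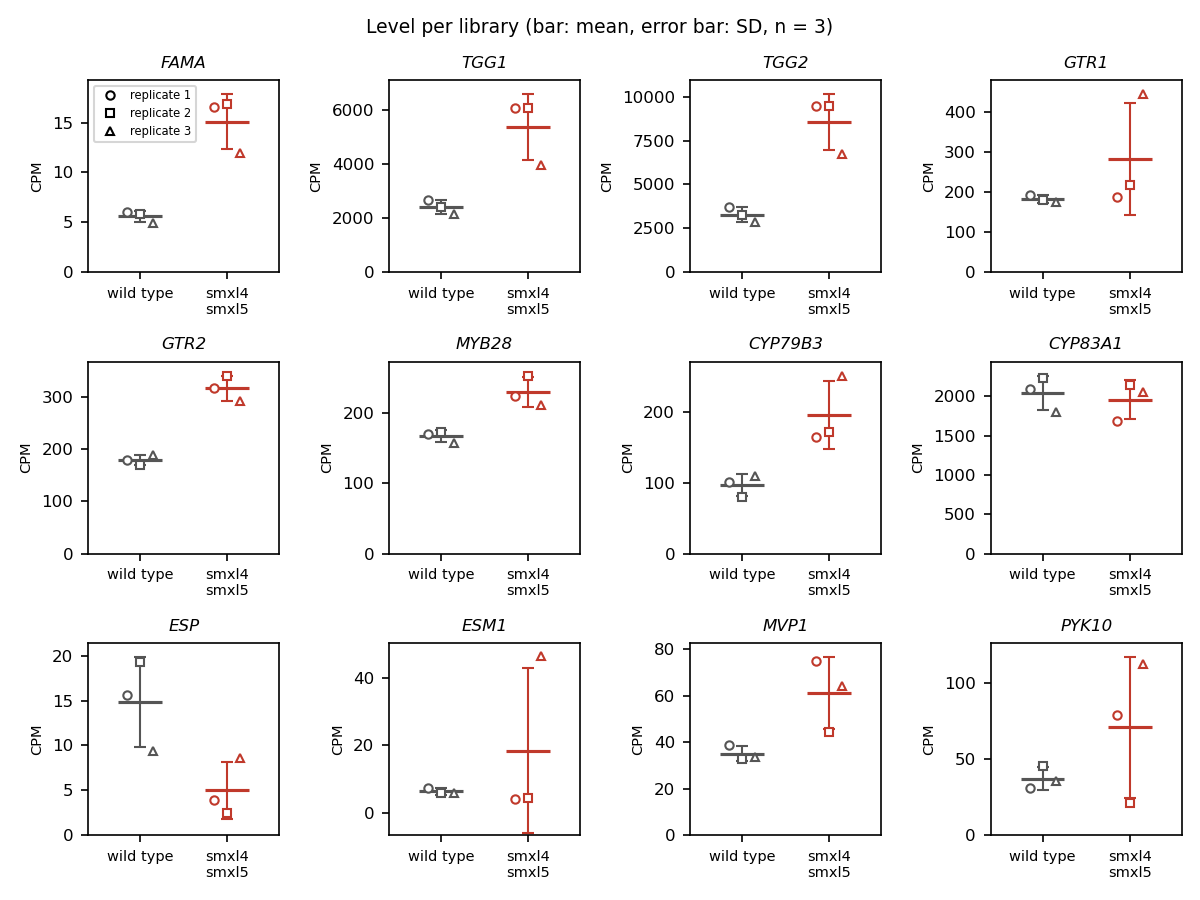
Level of 12 glucosinolate genes in each library in CPM, with the mean as a bar and the SD as an error bar (n = 3) and a symbol for each replicate number. *FAMA*, *TGG1*, *TGG2*, *GTR2*, *MYB28*, *CYP79B3* and *MVP1* lie above wild type without overlap, and *ESP* lies below it without overlap. The high means of *GTR1* and *ESM1* rest on mutant-labelled replicate 3.

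Products of glucosinolate breakdown are steered by further proteins, and of the 3 genes followed *MVP1* alone passed the test. *ESP*, the epithiospecifier that diverts hydrolysis from isothiocyanates to nitriles, was at 3.89, 2.51 and 8.57 CPM in the mutant-labelled libraries against 15.7, 19.4 and 9.41 CPM in wild type. All mutant-labelled values were below all wild-type values, yet replicate 3 of each genotype came close to the other, and the log2 fold change of -1.54 ± 0.50 missed the threshold (edgeR adjusted p = 0.0739). It passed without mutant-labelled replicate 3, at -2.18 (edgeR adjusted p = 0.0167), and in DESeq2's Wald test (adjusted p = 0.0314). A stretch of 312 bases of *ESP* is 95.5% identical to another annotated locus, AT3G29634, so reads may be shared between them.

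*ESM1*, an ESP-modifier gene that favours isothiocyanates, was at 4.22, 4.46 and 46.5 CPM against 7.47, 5.79 and 5.79 CPM. Mutant-labelled replicate 3 alone was high, and the log2 fold change of 1.56 ± 1.00 did not pass (edgeR adjusted p = 0.296). Without that library *ESM1* was lower, at -0.55 with an edgeR adjusted p of 0.0445. *MVP1*, which encodes a related GDSL lipase-like protein of the endomembrane system, was at 74.8, 44.3 and 64.2 CPM against 38.8, 32.8 and 33.5 CPM, with no overlap, and rose by 0.81 ± 0.19 on the log2 scale (edgeR adjusted p = 0.0243). That call was lost without mutant-labelled replicate 1 or any 1 of the wild-type replicates, where the edgeR adjusted p reached up to 0.0945.

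The 2 plasma membrane transporters that load glucosinolates into the phloem are close relatives, and per length their wild-type levels were close, at 81.0 RPKM (CPM per kilobase of exon) for *GTR1* and 75.4 RPKM for *GTR2*. *GTR2* (AT5G62680; chr5:25165137-25168060) was at 318, 341 and 293 CPM in the mutant-labelled libraries against 179.7, 169 and 189.9 CPM. Its groups were far apart with little spread, and it rose by 0.82 ± 0.089 on the log2 scale (edgeR adjusted p = 0.00248). *GTR1* (AT3G47960; chr3:17697942-17700923) was at 187, 217 and 444 CPM against 193, 179 and 174 CPM. Mutant-labelled replicate 3 stood far above the other 5 libraries, which overlapped, and the log2 fold change of 0.64 ± 0.33 did not pass (edgeR adjusted p = 0.210). It was 0.15 without that library. Both genes overlap loci on the opposite strand. *GTR2* overlaps AT5G62670, with 15612 counts in all, over 73 bases. *GTR1* overlaps AT3G47950, with 647 counts in all, over 58 bases, and AT3G07835, which the count table lacks, over 324 bases. The strand setting of the count is not given in the sources used here.

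Among the MYB regulators the pattern was mixed. *MYB28* (AT5G61420; chr5:24689069-24691187), a main activator of aliphatic synthesis, was at 224, 253 and 212 CPM against 169.8, 173 and 157 CPM without overlap, and rose by 0.46 ± 0.092 on the log2 scale (edgeR adjusted p = 0.0123). The call was kept in all alternatives run. *MYB29*, which acts beside it, was at 191, 206 and 248 CPM against 229, 267 and 188 CPM, and the less abundant *MYB76* was at 9.85, 8.41 and 13.9 CPM against 12.7, 16.6 and 8.76 CPM. Both overlapped between groups, with log2 fold changes of -0.086 ± 0.15 and -0.23 ± 0.28.

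Of the indolic regulators, *MYB34* was at 19.6, 21.5 and 34.9 CPM against 18.2, 16.9 and 16.6 CPM. Its groups did not overlap, and mutant-labelled replicate 3 was the highest (log2 0.56 ± 0.22, edgeR adjusted p = 0.105). In DESeq2's Wald test it passed, with an adjusted p of 0.0418, and without mutant-labelled replicate 3 its log2 fold change was 0.25. *MYB51* was at 17.4, 6.93 and 16.1 CPM against 11.8, 8.71 and 14.4 CPM and overlapped (log2 0.22 ± 0.37). *MYB122* had 5 counts in all in the mutant-labelled libraries and 6 in wild type and was not tested.

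Per length, the aliphatic branch held the most abundant enzyme transcripts of synthesis, and it showed little difference between genotypes. Of its 17 tested genes, regulators included, *MYB28* rose and 0 fell, and the median log2 fold change was -0.059. Leaving out single libraries moved that median between -0.17 and 0.060, and *IMD3* was called lower without wild type replicate 3. The 18 genes of the branch summed to 8838, 10584 and 11466 CPM in the mutant-labelled libraries and to 10666, 12053 and 8906 CPM in wild type. The ranges of the sums overlapped. Standard errors of the 16 genes not called ran from 0.090 to 0.28, so modest changes of single genes could have been missed.

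Chain elongation lengthens methionine before the core pathway. *BCAT4*, the aminotransferase of its first step, was the most abundant of these genes per length, with 1219.8 RPKM in wild type and 1222 RPKM in the mutant-labelled libraries. It reached 1592, 1785 and 1944 CPM in the mutant-labelled libraries where wild type had 1839, 1999.5 and 1471 CPM. The groups overlapped, with a log2 fold change of 0.0031 ± 0.14. The isomerase subunit gene *IPMI2* had the largest difference of the 8 tested, at 221, 282 and 336 CPM against 344, 412 and 296 CPM, and its groups overlapped as well (log2 -0.33 ± 0.18, edgeR adjusted p = 0.211). The others, *MAM1*, *BCAT3*, *BAT5*, *IPMI1*, *IMD1* and *IMD3*, lay between -0.31 and 0.16. *MAM3*, a methylthioalkylmalate synthase gene like *MAM1*, had 35 counts in the mutant-labelled libraries and 14 in wild type and did not pass the filter on low counts. Its levels of 0.479, 0.418 and 0.277 CPM lay above the wild-type levels of 0.0893, 0.111 and 0.121 CPM. In alternatives that kept it, *MAM3* was called higher with no filter (log2 1.79, edgeR adjusted p = 0.0229), in DESeq2's Wald test (adjusted p = 0.0486) and without mutant-labelled replicate 2 or 3 or wild type replicate 3 (edgeR adjusted p = 0.0464, 0.0138 and 0.0394). It missed the threshold without mutant-labelled replicate 1 or wild type replicate 1 or 2 (edgeR adjusted p up to 0.0744).

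In the aliphatic core, *CYP83A1*, which oxidises aliphatic aldoximes, was the most abundant gene per length (1070.4 RPKM in wild type). It was at 1681, 2144 and 2058 CPM against 2095, 2234 and 1801 CPM, overlapping, with a log2 fold change of -0.059 ± 0.13. *CYP79F1* and *CYP79F2* form the aldoximes from elongated methionine. *CYP79F2* had the largest difference of the core, at 56.2, 65.7 and 91.4 CPM against 51.4, 60.4 and 41.2 CPM with a narrow overlap (log2 0.48 ± 0.21, edgeR adjusted p = 0.143), while its far more abundant neighbour *CYP79F1* was at -0.034 ± 0.18. The sulfotransferase genes *SOT17* and *SOT18* and the glycosyltransferase gene AT2G31790 lay between -0.14 and 0.015.

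All 4 genes of the indolic core had positive log2 fold changes, and 1 of them was called. *CYP79B3* (AT2G22330; chr2:9488413-9491404), which turns tryptophan into indole-3-acetaldoxime, was at 165, 172 and 252 CPM against 101, 79.9 and 110.2 CPM. The groups did not overlap and replicate 3 was the highest in either genotype. It rose by 1.01 ± 0.19 on the log2 scale (edgeR adjusted p = 0.0133). Without replicate 1 of the wild type the edgeR adjusted p was 0.0508 and the call was lost.

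Its partner *CYP79B2* catalyses the same step and was at 0.67 ± 0.36, and the sulfotransferase gene *SOT16* was at 0.28 ± 0.16. Both values rested on mutant-labelled replicate 3, without which they were 0.19 and 0.069. *CYP83B1*, the next oxidase and per length the most abundant indolic gene over all libraries, was at 344, 295 and 580.1 CPM against 239, 215 and 264 CPM. Its groups did not overlap, with replicate 3 far above, and the log2 fold change of 0.76 ± 0.26 missed the threshold (edgeR adjusted p = 0.0731). It passed in DESeq2's Wald test and without mutant-labelled replicate 2, at 0.93 (edgeR adjusted p = 0.0386). It also passed without mutant-labelled replicate 3, but at a smaller log2 fold change of 0.42 (edgeR adjusted p = 0.0392). Over the 6 tested indolic genes, regulators included, the median was 0.62, beside -0.059 for the aliphatic branch. Without mutant-labelled replicate 3 these medians were 0.22 and -0.17. The difference between the branches was not tested.

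Of the steps that both branches use 0 of 3 genes were called. *GGP1*, a γ-glutamyl peptidase gene and the most abundant of the 3 per length, was at 326, 343 and 498 CPM against 347, 439 and 345 CPM (log2 0.046 ± 0.18). The glucosyltransferase gene *UGT74B1* was at 259.8, 303 and 319 CPM against 262, 306 and 279 CPM (log2 0.058 ± 0.10), and the C-S lyase gene *SUR1* was at -0.043 ± 0.14. All 3 overlapped between groups.

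Of the side chain genes 0 of 3 were called. *FMOGS-OX1*, whose product oxygenates the sulfur of the aliphatic side chain, was at 288, 339 and 367 CPM against 295, 313 and 285 CPM and overlapped (log2 0.16 ± 0.10). *CYP81F2*, which hydroxylates the indole ring, was scarce at 4.61, 0.744 and 2.25 CPM against 1.31, 0.843 and 1.35 CPM. Its mutant-labelled libraries ran from below wild type to well above it (log2 1.15 ± 0.59, edgeR adjusted p = 0.195). Without mutant-labelled replicate 2 it passed, at 1.54 (edgeR adjusted p = 0.0307), whereas without mutant-labelled replicate 1 it was at 0.41 (edgeR adjusted p = 0.572). *AOP2*, which TAIR10.1 annotates as a pseudogene, was at 0.20 ± 0.21.

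The libraries did not vary together across these groups. *FAMA*, *TGG1*, *TGG2*, *GTR2* and *MYB28* were lowest in replicate 3 of the mutant-labelled group. The indolic branch was highest there, with a mean log2 deviation from the mean of all libraries of 0.75, against 0.17 and -0.14 in replicates 1 and 2. The transporters parted, *GTR1* being at 1.02 in replicate 3 against -0.22 and -0.012, and *GTR2* at 0.30 against 0.41 and 0.51. Of a list of 15 jasmonate-related genes 4 rose, 0 fell and 11 were not called, beside 11.2% higher and 13.7% lower over all genes tested. The mean of this list was also highest in mutant-labelled replicate 3, at 1.11 where replicates 1 and 2 were at 0.33 and -0.078. The list summed to 1984 to 3347 CPM in the mutant-labelled libraries and 1289 to 1601 CPM in wild type, and its part in the indolic and *GTR1* values was not tested.

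**Figure D3:**
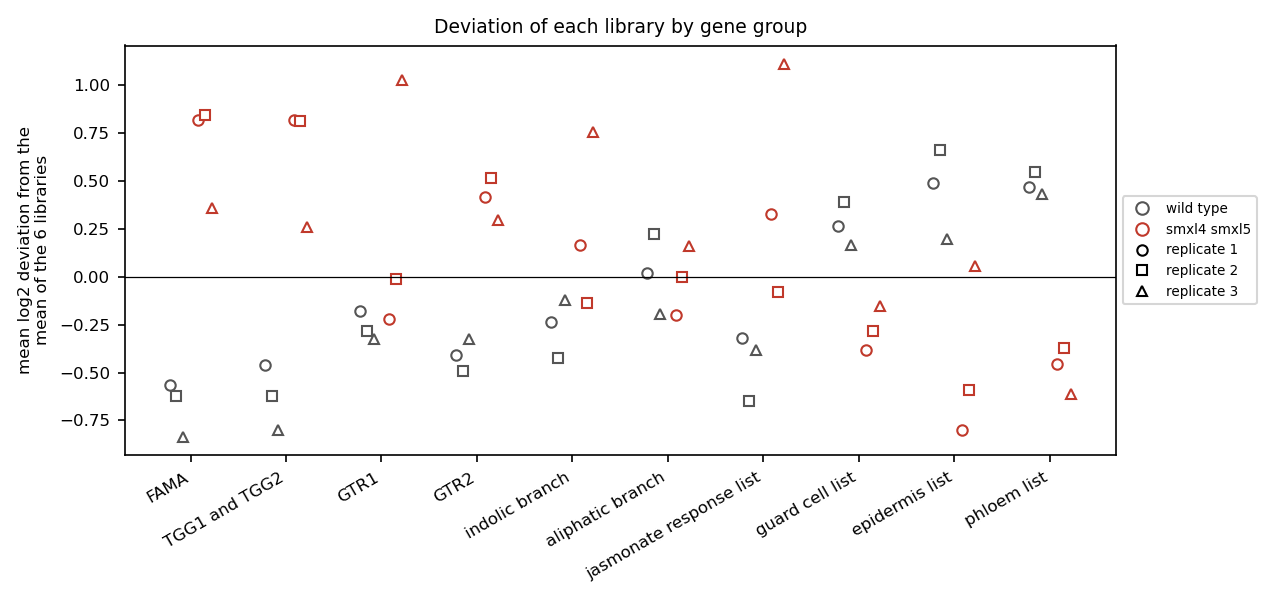
Mean log2 deviation of each library from the mean of the 6 libraries, for groups of glucosinolate genes and for marker lists, with a symbol for each replicate number. Mutant-labelled replicate 3 is the lowest red point for *FAMA*, the *TGG* genes and *GTR2* and the highest for *GTR1*, the indolic branch and the jasmonate list.

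A further 65 genes of the pathway that are not among the 41 were listed by role, and 55 were tested. Of these 14 rose and 5 fell, with a median log2 fold change of 0.071, beside 11.2% higher and 13.7% lower over all genes tested. The median was -0.045 without mutant-labelled replicate 3. Without wild type replicate 2 the counts were 6 and 1, in the fit that also called the fewest genes over the whole table when single libraries were left out. Both tested genes of myrosinase-binding proteins, 3 of 4 tested nitrile specifier genes and 2 of 3 ER body genes rose, while 0 of 6 further core genes and 0 of 3 further chain elongation genes were called.

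The myrosinase-binding protein genes *MBP1* and *MBP2* encode lectin-like partners of myrosinase. *MBP1* was at 635, 403 and 593 CPM in the mutant-labelled libraries against 233, 175 and 189 CPM, and *MBP2* was at 600.3, 483 and 494 CPM against 373, 236 and 229 CPM. Neither overlapped, and they rose by 1.45 ± 0.19 and 0.91 ± 0.20 on the log2 scale (edgeR adjusted p = 0.00449 and 0.0207). The call of *MBP2* was lost without mutant-labelled replicate 1 or wild type replicate 2 or 3 (edgeR adjusted p up to 0.0744).

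Nitrile specifiers turn the unstable product of myrosinase into simple nitriles. *NSP1* was at 377, 237 and 298 CPM against 179, 133 and 109 CPM and *NSP4* at 137, 85.7 and 111 CPM against 61.7, 50.3 and 39.5 CPM, and these neighbours share a near-identical stretch of 1446 bases, so reads may have been split between them. *NSP3* was lower in level, at 5.75, 4.14 and 5.71 CPM against 3.19, 1.88 and 2.04 CPM. None of the 3 overlapped between groups. They rose by 1.11 ± 0.23, 1.14 ± 0.22 and 1.15 ± 0.23 on the log2 scale (edgeR adjusted p = 0.0186, 0.0147 and 0.0135), and all 3 calls were lost without wild type replicate 2, where the adjusted p reached at most 0.0761.

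*NAI2*, which is needed to form ER bodies, was at 62.0, 31.5 and 62.1 CPM against 12.7, 15.7 and 15.1 CPM, and *PBP1*, which encodes a PYK10-binding lectin, was at 263, 153 and 290.2 CPM against 97.9, 95.1 and 95.02 CPM. Both were above wild type in every mutant-labelled library, and they rose by 1.84 ± 0.28 and 1.296 ± 0.23 (edgeR adjusted p = 0.00891 and 0.0111). Without wild type replicate 2 the adjusted p of *PBP1* was 0.0501. The root myrosinase genes *TGG4* and *TGG5* had 0 counts in all 6 libraries.

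*CYP81F3*, a relative of *CYP81F2* that also hydroxylates the indole ring, had the largest change of the 65. It was at 13.4, 15.8 and 12.6 CPM against 2.23, 2.59 and 1.80 CPM, a rise of 2.65 ± 0.16 on the log2 scale or 6.30-fold (edgeR adjusted p = 0.000568). Its values were close together within each genotype, and the range over all alternatives was 2.51 to 2.79.

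The 5 genes that fell were named after their values were seen. They were *IQD1* at -0.69 ± 0.16, AT1G04770 at -0.47 ± 0.12, the S-oxygenase genes *FMOGS-OX4* and *FMOGS-OX5* at -0.83 ± 0.18 and -0.44 ± 0.084, and the transporter gene *NRT1.9* at -0.33 ± 0.095. Their number was 2 without mutant-labelled replicate 1 or 2. It was 3 when replicate 1 of the wild type was left out and 1 when replicate 2 was. *NRT1.9* (edgeR adjusted p = 0.0409) was not called when any 1 mutant-labelled library or wild type replicate 1 or 2 was left out. Blocking by replicate number also removed its call (adjusted p up to 0.144 over these fits). Without mutant-labelled replicate 3 *OBP2* was called lower instead (log2 -0.61, edgeR adjusted p = 0.007). *IQD1* was not called with that block or without replicate 1 of either genotype or wild type replicate 2. AT1G04770 was not called without mutant-labelled replicate 1 or 2 or wild type replicate 2 (edgeR adjusted p up to 0.0931). *FMOGS-OX4* was not called without replicate 2 of either genotype (edgeR adjusted p up to 0.0667). *FMOGS-OX5* overlaps other annotated loci over up to 1066 bases, and *NRT1.9* over up to 605. Of the bHLH factors that act with the MYB regulators, *MYC3* was at 123, 136 and 128 CPM against 96.5, 95.8 and 88.1 CPM and rose by 0.46 ± 0.077 (edgeR adjusted p = 0.00714), also named after its values were seen. *MYC2*, at 0.50 ± 0.21, and *MYC4*, at -0.11 ± 0.11, were not called.

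**Figure D4:**
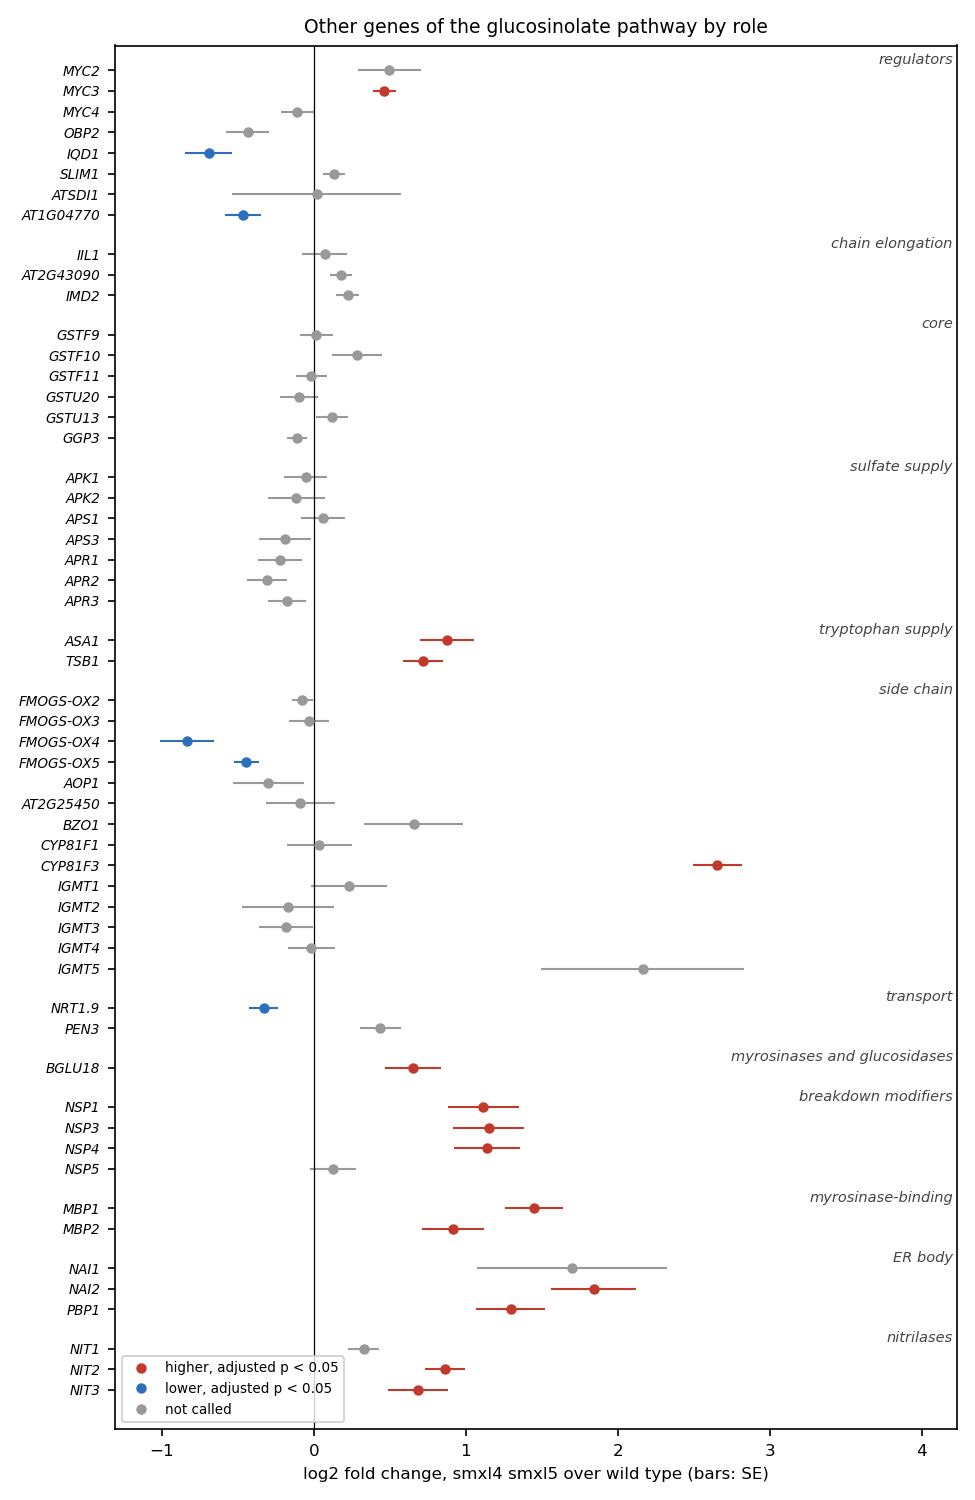
Log2 fold change of smxl4 smxl5 over wild type for the 55 tested genes of the further list, ordered by role, with bars for the standard error. The 14 higher genes (red) include the nitrile specifier, myrosinase-binding and ER body genes, and the 5 lower genes (blue) include 2 S-oxygenase genes.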

How the data were processed

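RNA sequencing libraries of grafted stem bases were compared, 3 labelled *smxl4 smxl5* and 3 labelled wild type, grouped by the genotype label of the stem and numbered by title. Raw counts of reads for each gene were deposited by the authors. Per the submitters' processing notes, the tools were TopHat2 2.0.14, FastQC 0.11.7 and DESeq2, with TAIR10 as the genome. How reads were counted, and with which strand setting, is not given in the sources used here. A deposited comparison table was not used.

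Genotypes were compared with edgeR 4.0.16 (R 4.3.3) over the whole table. Low genes were dropped with filterByExpr at a minimum count of 10 and a minimum total of 15, libraries were scaled by TMM, and genotype was the one term of a robust quasi-likelihood fit with Benjamini-Hochberg adjustment over all 20296 genes. Dividing a log2 fold change by the root of its F value gave its standard error. CPM uses TMM-scaled library sizes, and RPKM divides it by the union of annotated exons. The test was checked on simulated counts. Alternatives were median-ratio size factors, library totals, no filter, DESeq2 1.42.0, the replicate number as a block, and leaving out each library. Replicates differed by at least 12.3 in chi-square per gene, so none repeats another.

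Names and positions come from RefSeq TAIR10.1, where 32835 of 33602 loci were found, and shared sequence was searched with BLAST 2.17.0 (minimum identity 95%, minimum length 200 bases). Of the 41 symbols 38 were in that annotation; *IMD1* and *IMD3* follow it and AT2G31790 is given by code. The members and lists were chosen with earlier results of these data known. Values in every library are given for called members, regulators, transporters, myrosinases and modifiers, and in other roles for the gene with the largest change and the most abundant; of the further list, the 8 called genes with the largest changes and at least 1 CPM are named.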

Additional observations from a re-analysis of the deposited data

How the results depend on the processing

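Of all 41 members, the number that rose was 7 to 10 under the alternatives that used all libraries and 5 to 11 when single libraries were left out (11 without mutant-labelled replicate 2), which counts *MAM3*, called with no filter, in DESeq2 and without mutant-labelled replicate 2 or 3 or wild type replicate 3 but outside the 39 genes; those that fell numbered 0 to 2 without single libraries (*ESP* and *ESM1* without mutant-labelled replicate 3, *IMD3* without wild type replicate 3) and 1 (*ESP*) in DESeq2's Wald test. The calls of *FAMA*, *TGG1*, *TGG2*, *GTR2* and *MYB28* were kept in all 11 alternatives. With *MAM3* where it had a value, the lowest median of the members was 0.018, without mutant-labelled replicate 3, and the highest 0.20, without replicate 1 of that group. Of the 65 further pathway genes 6 to 19 rose when single libraries were left out (6 without wild type replicate 2, and 19, with *BGLU22* outside the 55, without mutant-labelled replicate 2) and 1 to 5 fell (2 without mutant-labelled replicate 1 or 2, 3 and 1 without wild type replicates 1 and 2). Over all genes 597 to 2423 were higher and 1305 to 3135 lower when single libraries were left out, with the lowest numbers without wild type replicate 2.

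Pairing of the libraries by replicate number was not seen. Deviations of same-numbered libraries correlated at 0.028, 0.073 and -0.015, and those of the other pairs at -0.19 to 0.13. With 3 libraries per group these values cannot settle whether the numbers pair the libraries. With the replicate number as a block, 1355 genes were higher and 2001 lower, 8 members rose and 0 fell.

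Signs changed for 15 genes, none of them among the 7 that rose in the full comparison; the cause was not tested. With median-ratio size factors, no filter and DESeq2, *BCAT4* was at -0.0048, -0.012 and -0.0062 and *BAT5* at -0.0043, -0.011 and -0.0057. With library totals AT2G31790 was at 0.0060, and with no filter *SOT17* was at -0.00033. Without single libraries the ranges were -0.22 to 0.041 for *MYB29*, -0.47 to 0.013 for *MYB76*, -0.0012 to 0.51 for *MYB51*, -0.12 to 0.10 for *BCAT4*, -0.11 to 0.092 for *BAT5*, -0.26 to 0.060 for *IPMI1*, -0.19 to 0.11 for *CYP79F1*, -0.15 to 0.040 for *CYP83A1*, -0.074 to 0.070 for AT2G31790, -0.10 to 0.11 for *SOT17*, -0.14 to 0.079 for *SUR1*, -0.17 to 0.17 for *GGP1*, -0.0053 to 0.14 for *UGT74B1* and -0.068 to 0.14 for *PEN2*. *ESM1* ran from -0.55 to 2.03 and passed as lower without mutant-labelled replicate 3. *MYB122*, with 5 and 6 counts, was kept with no filter alone among the edgeR fits and was not called.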

Other observations

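The tryptophan synthesis genes *ASA1*, an anthranilate synthase subunit, and *TSB1*, a tryptophan synthase subunit, both rose. *ASA1* was at 144, 136 and 209.8 CPM in the mutant-labelled libraries against 99.9, 84.4 and 82.7 CPM in wild type (log2 0.88 ± 0.18, edgeR adjusted p = 0.0145), and *TSB1* was at 255, 219 and 318 CPM against 163, 155 and 163 CPM (log2 0.72 ± 0.13, edgeR adjusted p = 0.00976). Neither overlapped between groups, and both were highest in mutant-labelled replicate 3. The call of *ASA1* was lost without wild type replicate 2 (edgeR adjusted p = 0.0629). Of 7 tested genes of sulfate activation and reduction, which supply activated sulfate and reduced sulfur, 0 were called, with log2 fold changes from -0.31 for *APR2* to 0.060 for *APS1*.

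The nitrilase genes, whose enzymes hydrolyse nitriles such as those from glucosinolate breakdown, were all higher in every mutant-labelled library than in any wild-type library. Of all genes tested 23.3% lay above in this way. *NIT2* was at 102, 96.3 and 123 CPM against 54.4, 53.1 and 68.5 CPM and rose by 0.87 ± 0.13 on the log2 scale (edgeR adjusted p = 0.00575). *NIT3* rose by 0.69 ± 0.20 (edgeR adjusted p = 0.0417), a call lost in 6 of the 11 alternatives (adjusted p up to 0.139), and *NIT1*, the most abundant, was at 0.33 ± 0.10 (edgeR adjusted p = 0.0529). *BGLU18*, the glucosidase gene of inducible ER bodies in leaves, was at 4116, 3499.7 and 3288 CPM against 2996, 1989 and 1957 CPM and rose by 0.65 ± 0.18 (edgeR adjusted p = 0.0385), a call lost in 4 of the 11 alternatives. All genes named in these paragraphs were picked after their values were seen.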
